A study of Mus musculus with 24 samples.

Results

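The integrin and laminin genes were taken as the protein-coding genes of the deposited count table whose symbols follow the naming of integrin subunits (Itga or Itgb with a number, and Itgae, Itgal, Itgam, Itgav, Itgax, Itgad and Itga2b) or of laminin chains (Lama, Lamb or Lamc with a number). The rule gave 37 of the 52178 genes in the table: 18 integrin alpha subunits, 8 integrin beta subunits, 5 laminin alpha chains, 3 laminin beta chains and 3 laminin gamma chains. Of these, 35 passed the filter on low counts and were tested. Itgae and Itgad, subunits of leukocyte integrins, did not pass it: they had at most 1.14 and 0.562 CPM (counts scaled to library size) in any of the 22 libraries used.

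Integrins are transmembrane receptors made of an alpha and a beta subunit that tie cells to extracellular matrix and pass mechanical signals to the actin cytoskeleton, while a leukocyte-specific subset binds other cells. Laminins are trimers of an alpha, a beta and a gamma chain, and are the main cell-binding glycoproteins of basement membranes and of the pericellular matrix. In cartilage, chondrocytes have no basement membrane but are surrounded by a pericellular matrix, and they attach to collagen II largely through the collagen-binding integrin alpha10 beta1.

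The study compared explants of mouse hip cap cartilage with embryonic metatarsals and exposed both to hydrostatic pressure. The hip caps were femoral heads of 4-week-old male C57/Bl6 mice, 2 pooled per library (both hips of a mouse, by the study's methods), and the metatarsals came from C57/Bl6 embryos at embryonic day 15, of unstated sex, 6 pooled per library. After 24 h in culture the tissues were kept for 1 h at 0 MPa (control), 5 MPa (called physiological) or 50 MPa (called injurious), and RNA was taken 24 h later. The 6 groups had 4 libraries each, from which the study removed the hip cap control HC4 and the 50 MPa hip cap H502, and the same 22 were used here. Neither tissue was altered genetically, and every explant, controls included, had been cultured. Tissue, age and culture medium changed together, and sex may also have differed. Differences between hip caps and metatarsals cannot be assigned to any of these factors, which cannot be told apart.

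The 22 libraries held 4185557 to 25104484 estimated counts. Sequencing run, read from the study's heat map of samples and so open to error for single libraries, and library type were unevenly spread: all hip cap controls were sequenced in run 1, all 5 MPa hip caps in run 2, and the 50 MPa hip caps were run 1 and unstranded, as was, among hip cap controls, only HC3. The comparison of tissues at 5 MPa was the only one with all 8 libraries in the same run and of the same library type. Chondrocyte markers summed to 46132 to 75441 CPM in hip cap controls and to 1709 to 4455 CPM in metatarsal controls, with each of the 10 markers detected in both, while 12 skeletal muscle markers summed to 9.77 to 16.8 and 1147 to 2744 CPM. The libraries MC2 and H53 stood apart. The metatarsal control MC2 had 435 CPM of 8 epidermal markers against 3.47 to 8.10 in every other library. The 5 MPa hip cap H53 had 716 CPM of macrophage, 204 CPM of neutrophil and 348 CPM of endothelial markers, against 142 to 225, 12.6 to 46.2 and 84.5 to 138 CPM in the other 5 MPa hip caps, and its chondrocyte markers were the lowest of the hip caps at 21094 CPM. Values without them are given beside the results they changed. In such bulk RNA, fewer cells of a type and less RNA per cell cannot be told apart.

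Genes were compared with each other per kilobase of transcript, taking the longest coding transcript of each. The study describes partial degradation of its RNA, for which this scale makes no correction. Itgb1, the beta subunit shared by most matrix-binding integrins, was the most abundant integrin subunit in all 6 groups. It had 69.4 ± 13.0 CPM per kilobase (mean ± SD, n = 3) in hip cap controls and 63.7 ± 5.37 (n = 4) in metatarsal controls. In hip cap controls the next were Itgb5 at 65.5 ± 19.3, Itga10 at 50.6 ± 11.9, Itgav at 14.3 ± 1.96 and Itga5 at 11.7 ± 2.22 CPM per kilobase. The first 3 of this order had overlapping spreads, as did Itgav and Itga5. In metatarsal controls the order after Itgb1 was Itgb5 at 16.2 ± 3.26, Itga5 at 14.7 ± 2.21, Itgav at 10.4 ± 0.747 and Itga10 at 9.14 ± 2.65 CPM per kilobase. The spreads of Itgb5 and Itga5 overlapped there, as did those of Itgav and Itga10. Among laminins, the beta2 chain Lamb2 led in hip cap controls with 35.9 ± 11 CPM per kilobase, above Lama4 at 8.93 ± 0.799 and Lamc1 at 8.76 ± 0.701, which did not differ beyond their spread. In metatarsal controls the alpha4 chain Lama4 led with 38.0 ± 1.86 CPM per kilobase, followed by Lamb2 at 24.5 ± 1.75, Lamc1 at 20.9 ± 1.89 and Lamb1 at 19.8 ± 1.69. The epithelial chains Lama3 and Lamb3 and the alpha1 chain Lama1 were below 1.5 CPM per kilobase in the mean of every group.

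The results turn most on Itga10 and Itgb5, which were higher in hip caps, and on Lamb1 and Lama2, which were lower. The 250 bases before the start of each of these genes are shown from RefSeq (build GRCm38.p6), 5′ to 3′ on the strand of the gene, with the GC box GGGCGG, the core letters bound by Sp and KLF factors, in capitals on either strand (CCGCCC on the reverse).
Itga10 (chr3:96645334-96645583, + strand): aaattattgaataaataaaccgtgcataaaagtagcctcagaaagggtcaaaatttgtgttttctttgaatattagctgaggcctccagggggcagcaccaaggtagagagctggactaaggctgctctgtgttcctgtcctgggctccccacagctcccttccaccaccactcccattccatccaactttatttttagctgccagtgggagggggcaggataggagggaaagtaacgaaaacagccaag
Itgb5 (chr16:33829415-33829664, + strand): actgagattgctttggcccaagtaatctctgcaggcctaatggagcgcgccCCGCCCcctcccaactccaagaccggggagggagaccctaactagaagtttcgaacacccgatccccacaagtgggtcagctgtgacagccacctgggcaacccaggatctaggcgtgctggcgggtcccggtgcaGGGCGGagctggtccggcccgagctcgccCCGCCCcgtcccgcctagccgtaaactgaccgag
Lamb1 (chr12:31265043-31265292, + strand): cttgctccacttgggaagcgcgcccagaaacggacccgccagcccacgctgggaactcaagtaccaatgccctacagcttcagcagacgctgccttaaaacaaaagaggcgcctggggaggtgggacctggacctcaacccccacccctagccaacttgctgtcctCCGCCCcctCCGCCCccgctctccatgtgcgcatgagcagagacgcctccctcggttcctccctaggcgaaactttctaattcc
Lama2 (chr10:27616943-27617192, - strand): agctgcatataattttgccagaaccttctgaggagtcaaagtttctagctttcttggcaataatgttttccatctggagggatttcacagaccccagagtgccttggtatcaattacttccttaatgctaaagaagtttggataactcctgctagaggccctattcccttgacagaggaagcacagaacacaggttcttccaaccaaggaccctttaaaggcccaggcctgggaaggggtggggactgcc
Itgb5 had 3 matches and Lamb1 had 2, while Itga10 and Lama2 had none in this window, so the letters were present in a gene that was higher in hip caps and in a gene that was lower. RefSeq promoters were matched for 23 of the 37 genes, with 26 promoters among them. Of the 23 genes, 8 (34.8%) had the motif in any of their promoters. Of all 32851 promoters of this length, 32.7% had it, a share of single promoters and not of genes. The GC content of the 4 windows was 48.0% for Itga10, 65.2% for Itgb5, 62.0% for Lamb1 and 47.2% for Lama2.

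The integrins and laminins were first compared between the explants without pressure. In hip cap controls, the collagen receptor subunits Itga10 and Itga1, the beta subunits Itgb5 and Itgb3, the laminin receptor subunit Itga3 and the laminin chains Lama1 and Lamc3 were higher than in metatarsal controls. The laminin chains Lama2, Lama3, Lama4, Lama5, Lamb1 and Lamc1 and the integrin subunits Itga4, Itga8 and Itgb8 were lower. By edgeR's quasi-likelihood test with Benjamini-Hochberg adjustment over all genes, 16 of 35 passed an adjusted p of 0.05, 7 higher and 9 lower, where 31% of the 21283 genes tested did so (14.6% higher and 16.4% lower). At 5 MPa, 21 of 35 passed, 13 higher and 8 lower, against 38.1% of all genes (18.9% and 19.2%), and at 50 MPa 17 passed, 10 higher and 7 lower, against 20.4% (10.6% and 9.84%). By family, 5 of 24 integrin subunits were higher and 3 lower at 0 MPa, with a median log2 fold change of 0.24, and 2 of 11 laminin chains were higher and 6 lower, with a median of -0.82, beside a median over all genes of -0.08. All hip cap libraries lay above all metatarsal libraries for 8 of the 35 genes at 0 MPa, 10 at 5 MPa and 17 at 50 MPa, against 19.6%, 19.2% and 18.4% of all genes, and below them for 11, 7 and 8, against 22.8%, 21.5% and 21.4%.

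At all 3 pressures, 6 of the genes were higher in hip caps (Itga1, Itga10, Itga3, Itgb3, Itgb5 and Lama1) and 7 were lower (Itga8, Itgb8, Lama2, Lama3, Lama4, Lamb1 and Lamc1), where 7.43% and 7.09% of all genes did so. None passed in opposite directions at different pressures, and 12 passed at no pressure. The 3 comparisons use different libraries but 1 fit with shared batch terms. Scaling mattered here: with library sizes alone, the all-gene median of the hip cap differences was -0.96 at 0 MPa in place of -0.08, -0.70 at 5 MPa in place of -0.08, and -0.90 at 50 MPa in place of -0.01 (log2 fold changes). The split of the genes that passed then became 3 higher and 13 lower at 0 MPa, 7 and 11 at 5 MPa, and 4 and 14 at 50 MPa, and the median of the 24 integrin subunits at 0 MPa turned from 0.24 to -0.63. It also turned the sign of 11, 7 and 5 of the 35 values at 0, 5 and 50 MPa, though no gene past the threshold reversed. Directions below are therefore relative to the bulk of genes. The 2 metatarsal libraries of run 1 also weighed heavily: without MC1, 8 of 35 passed at 0 MPa, and without M504, 5 passed at 50 MPa. In run 1 alone, with 1 metatarsal library at each pressure, 8 passed at 0 MPa and 7 at 50 MPa, all of them among those above.

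**Figure D1:**
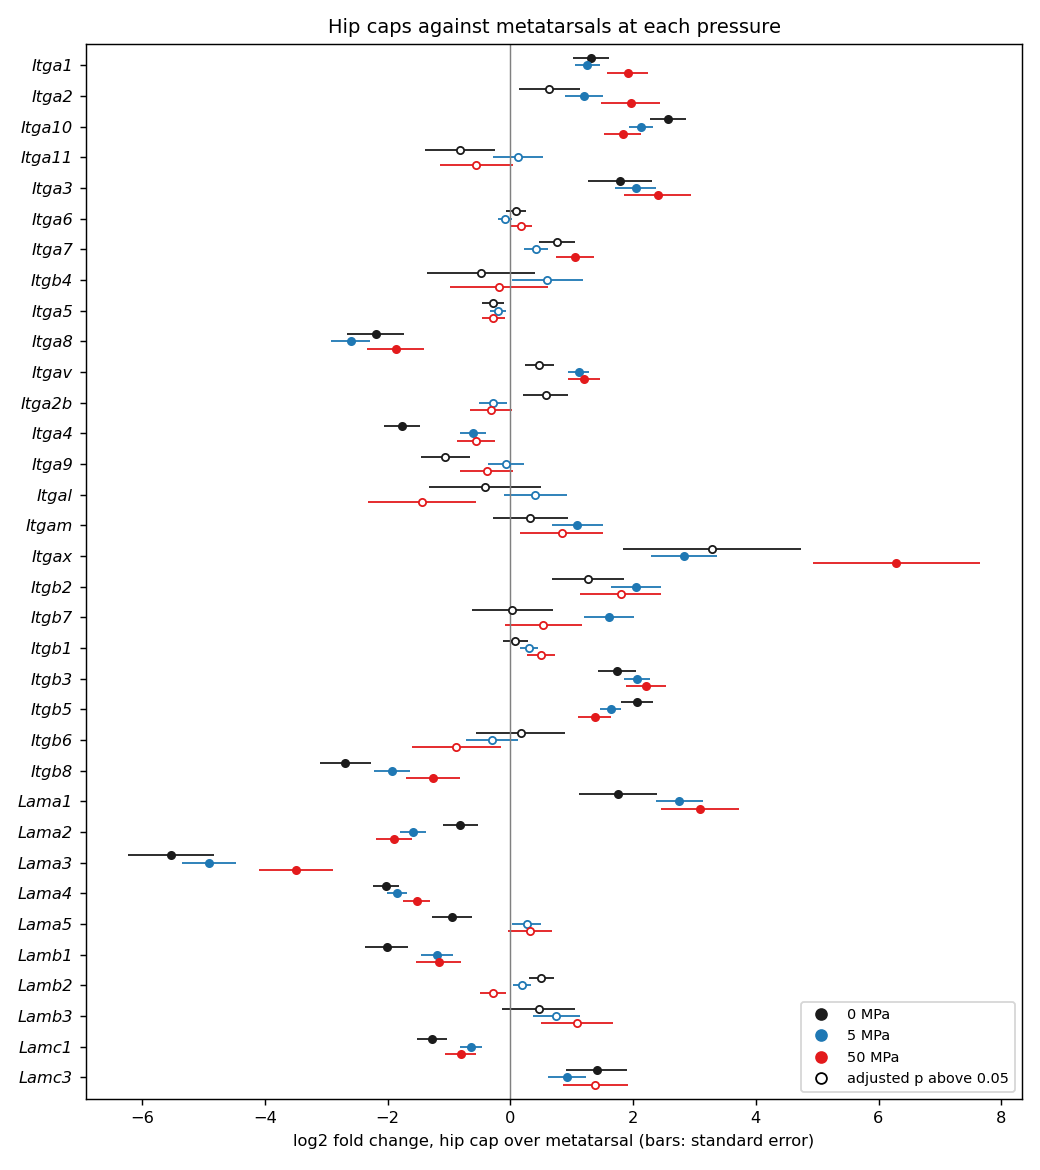
Log2 fold change of 34 integrin and laminin genes in hip caps over metatarsals at 0, 5 and 50 MPa, with standard errors as bars and filled points for adjusted p of at most 0.05. Itga10, Itgb5 and Itgb3 lie to the right and Lama3, Lama4, Lamb1, Itga8 and Itgb8 to the left at every pressure.

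Of the collagen-binding alpha subunits, Itga10 had the largest difference at 0 MPa. Its CPM in the hip cap controls was 281, 187 and 298, and in the metatarsal controls 39.6, 32.4, 63.4 and 48.9. The lowest hip cap was far above the highest metatarsal, and the log2 fold change was 2.57 ± 0.29 (SE), adjusted p = 1.4e-06, a 5.92-fold difference. The difference was 2.13 ± 0.20 at 5 MPa and 1.83 ± 0.31 at 50 MPa. Itga1, whose integrin prefers collagen IV among its collagen ligands, was at 41.5, 69.9 and 47.3 CPM in hip cap controls and 26.4, 28.6, 25.9 and 20.7 in metatarsal controls, again without overlap. Its log2 fold change was 1.31 ± 0.29 (SE), adjusted p = 0.00162 at 0 MPa and 1.91 ± 0.33 at 50 MPa. Itga2, the collagen I receptor subunit of platelets and epithelia, had 5.70, 7.78 and 3.99 CPM in hip cap controls and 2.48, 7.37, 4.80 and 2.70 in metatarsal controls. These ranges overlapped at 0 MPa (0.64 ± 0.50, adjusted p = 0.359), and Itga2 passed at 5 MPa (1.20 ± 0.31 (SE), adjusted p = 0.00435) and at 50 MPa (1.96 ± 0.48). Itga11, the mesenchymal collagen I receptor subunit, was the only collagen-binding subunit with lower values in hip cap controls (18.5, 21.1 and 25.7 CPM) than in metatarsal controls (32.9, 42.3, 47.6 and 43.3), and this difference did not pass (log2 fold change -0.82 ± 0.57 (SE), adjusted p = 0.304). At 5 MPa its hip cap values were 31.4, 20.1, 109 and 17.1 CPM, the high value being H53. Without MC2 and H53, its log2 fold change was -0.83 at 0 MPa (adjusted p = 0.0112) and -0.83 at 5 MPa (adjusted p = 0.0015).

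**Figure D2:**
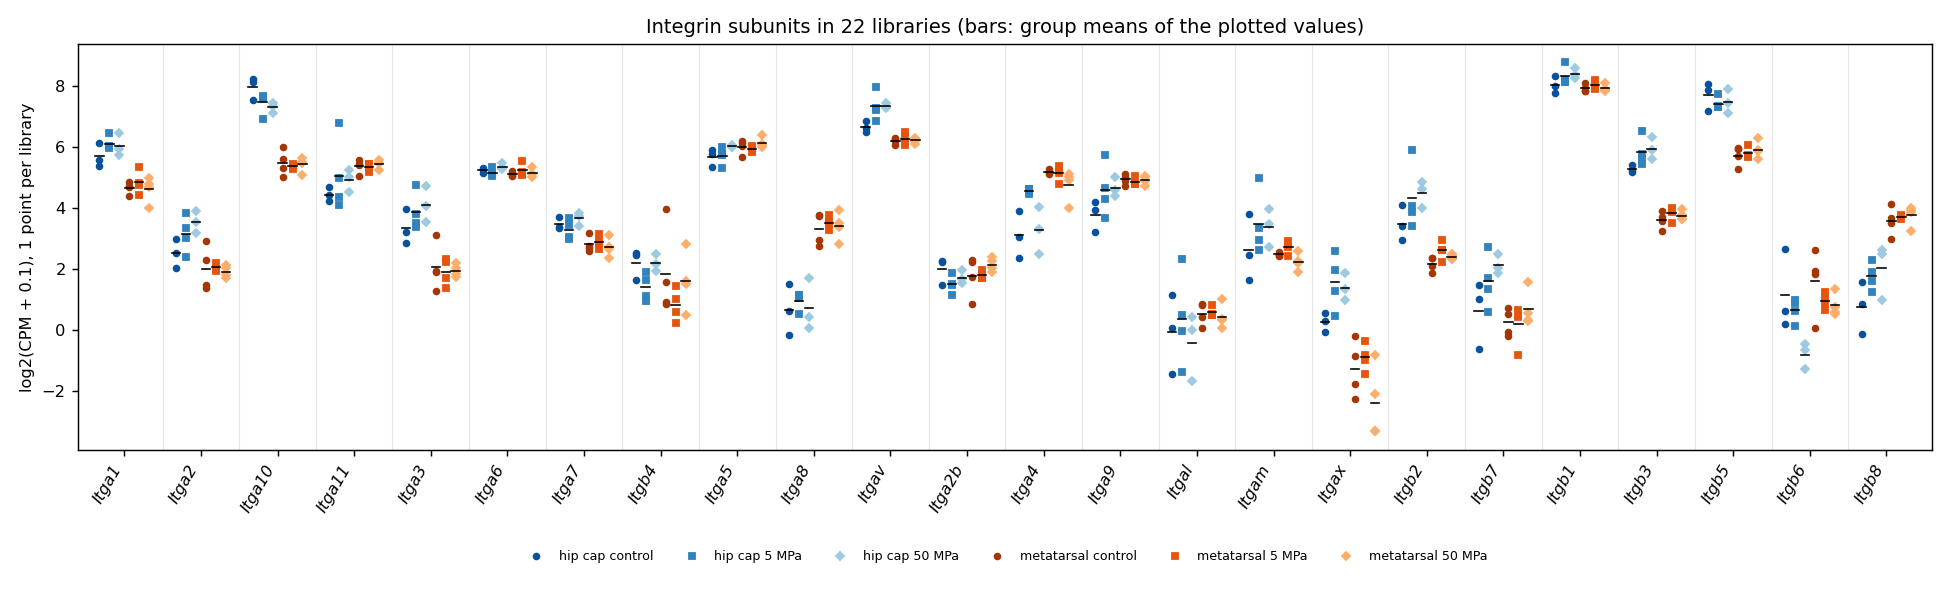
Log2(CPM + 0.1) of the 24 tested integrin subunits in each of the 22 libraries, grouped by tissue and pressure, with bars at group means of the plotted values. Itga10, Itgb3 and Itgb5 separate the tissues, whereas Itga6, Itga5 and Itgb1 lie at similar levels in all 6 groups.

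The laminin-binding subunits did not move as a group. Itga6, a laminin receptor subunit of many epithelial and stem cells, was at 32.7 to 44.6 CPM across all hip caps and 32.2 to 46.4 across all metatarsals, and it passed in no comparison. Itga3, whose integrin binds the alpha3 and alpha5 laminins, was higher in hip caps, with 7.05, 9.21 and 15.5 CPM in hip cap controls against 2.29, 8.44, 3.65 and 3.70 in metatarsal controls. The highest metatarsal value was MC2, the library with epidermal RNA, and the ranges overlapped through it. The log2 fold change of Itga3 was 1.79 ± 0.52 (SE), adjusted p = 0.0134, and 2.00 without MC2 and H53. Itga7, the laminin receptor subunit of skeletal muscle, was higher in hip caps at 50 MPa only by the test, with 14.0, 10.5 and 13.3 CPM against 6.20, 4.98, 8.52 and 6.46 (log2 fold change 1.06 ± 0.31 (SE), adjusted p = 0.0173). This stood beside skeletal muscle markers of 34.0 to 52.5 CPM in those hip caps and 495 to 1818 CPM in those metatarsals, so the subunit and the muscle markers differed in opposite directions. Itgb4, which pairs with alpha6 in hemidesmosomes, was at 5.43, 3.02 and 5.61 CPM in hip cap controls and 2.87, 15.4, 1.71 and 1.77 in metatarsal controls, where MC2 alone was high, and it passed in no comparison.

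Among the subunits that recognise the RGD motif of fibronectin, vitronectin and related ligands, Itga5, the fibronectin receptor subunit, was at 39.5 to 66.1 CPM in hip caps and 50.8 to 84.6 in metatarsals and did not pass. Itgav, which pairs with beta1, beta3, beta5, beta6 and beta8, was at 88.7, 116 and 98.5 CPM in hip cap controls and 77.8, 73.3, 77.1 and 66.3 in metatarsal controls. These ranges did not overlap, but the log2 fold change at 0 MPa was 0.47 ± 0.24 (SE), adjusted p = 0.139. It passed at 5 MPa (1.11 ± 0.17 (SE), adjusted p = 2.34e-05) and at 50 MPa (1.20 ± 0.26), where all 7 hip caps lay at 116 to 249 CPM and all 8 metatarsals at 67.3 to 89.2. Itga8, a nephronectin receptor subunit of embryonic mesenchyme, was lower in hip caps, at 2.71, 0.794 and 1.43 CPM against 7.65, 13.2, 6.68 and 13.5 in metatarsal controls (log2 fold change -2.20 ± 0.47 (SE), adjusted p = 0.00125). The platelet subunit Itga2b was at 2.11 to 4.66 CPM in hip caps and 1.72 to 5.15 in metatarsals, and did not pass. Itga4, which binds VCAM1 and fibronectin, was lower in hip cap controls at 8.14, 14.8 and 5.04 CPM against 38.8, 35.6, 34.7 and 36.4 (log2 fold change -1.77 ± 0.29 (SE), adjusted p = 0.000102). This call was lost with all 24 libraries in the fit, where HC4, the removed hip cap control, had 28.7 CPM of its own total. The difference was -0.61 ± 0.21 (SE), adjusted p = 0.025 at 5 MPa, a call lost in 12 of 20 alternatives, among them leaving out any hip cap or MC2 and H53 (-0.63, adjusted p = 0.0516). It did not pass at 50 MPa (-0.56 ± 0.31), with hip caps at 9.79, 16.1 and 5.56 CPM and metatarsals at 31.9, 30.2, 34.4 and 16.0. The last of these is M504, the only unstranded metatarsal library. Itga9, a close relative of Itga4, was at 9.23, 15.1 and 18.3 CPM against 26.4, 29.4, 32.2 and 34.4 in the controls. These ranges did not overlap, and the difference did not pass (-1.06 ± 0.40 (SE), adjusted p = 0.0542), while without MC2 and H53 it did (-1.08, adjusted p = 0.00348).

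Of the beta subunits, Itgb1 was at 219, 318 and 257 CPM in hip cap controls and 271, 245, 229 and 227 in metatarsal controls, and its log2 fold changes of 0.08 ± 0.21, 0.31 ± 0.15 and 0.50 ± 0.23 at 0, 5 and 50 MPa did not pass. Itgb5, the vitronectin receptor subunit, was at 233, 145 and 267 CPM in hip cap controls and 38.8, 51.4, 60.7 and 62.0 in metatarsal controls (log2 fold change 2.07 ± 0.26 (SE), adjusted p = 4.61e-06, 4.19-fold). Itgb3, the subunit that with alphav forms the attachment receptor of osteoclasts, was at 36.1, 42.1 and 37.3 CPM against 9.37, 11.8, 14.8 and 13.0 (log2 fold change 1.74 ± 0.31 (SE), adjusted p = 0.000223). For both genes every hip cap library was above every metatarsal library at each pressure. Osteoclast markers, 8 genes with 7 tested, moved in the same direction, with 3, 7 and 6 of 7 passing as higher at 0, 5 and 50 MPa. They summed to 329 to 531 CPM in hip cap controls and 37.5 to 67.1 in metatarsal controls, and to 545 to 1723 and 48.7 to 79.5 CPM under pressure. Of the 8 osteoclast markers, only Calcr was at 0 in every metatarsal library. The part of osteoclasts in the Itgb3 and Itgav differences was not tested. Itgb8, which with alphav activates latent TGF-beta, was lower in hip cap controls at 0.814, 2.86 and 1.71 CPM against 17.4, 12.5, 11.2 and 7.78 (log2 fold change -2.69 ± 0.42 (SE), adjusted p = 5.51e-05). Itgb6, the epithelial partner of alphav, was at 6.24, 1.43 and 1.05 CPM in hip cap controls and 0.956, 6.09, 3.43 and 3.70 in metatarsal controls, and did not pass.

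Of the 5 leukocyte subunits tested, none passed at 0 MPa, while 4 passed as higher in the hip caps under 5 MPa and 1 under 50 MPa. Of all genes, 14.6%, 18.9% and 10.6% passed as higher at 0, 5 and 50 MPa. Whether the differences of the leukocyte subunits changed with pressure was tested as an interaction, in which none of them passed. Itgb2, the common beta subunit of leukocyte integrins, was at 7.60, 10.5 and 17.1 CPM in hip cap controls and 4.97, 3.58, 5.02 and 4.16 in metatarsal controls. The ranges did not overlap, and the log2 fold change was 1.27 ± 0.59 (SE), adjusted p = 0.115. At 5 MPa it was at 14.5, 16.8, 58.8 and 10.5 CPM in hip caps and 6.01, 6.10, 7.64 and 4.58 in metatarsals, and the difference passed (2.05 ± 0.41 (SE), adjusted p = 0.000602). Without MC2 and H53, Itgb2 passed at all 3 pressures with log2 fold changes of 1.20, 1.20 and 1.83. Itgam, the alpha subunit of macrophages and neutrophils, passed only at 5 MPa (1.09 ± 0.41 (SE), adjusted p = 0.0458), where its hip cap values were 10.0, 7.58, 31.6 and 6.00 CPM. The value without MC2 and H53 was 0.27 (adjusted p = 0.506), and the call was lost in 13 of 20 alternatives, among them leaving out H53 alone or any of the 4 metatarsals. Itgax, the subunit known from dendritic cells and macrophages, was at 1.36, 1.11 and 0.856 CPM in hip cap controls and 0.191, 0.107, 0.457 and 0.771 in metatarsal controls. These ranges did not overlap, and the log2 fold change of 3.28 did not pass. At 5 MPa Itgax was at 2.32, 3.79, 5.92 and 1.27 CPM in hip caps and 0.404, 0.270, 0.470 and 0.679 in metatarsals (2.83 ± 0.54 (SE), adjusted p = 0.000242). At 50 MPa the metatarsals had 7, 3, 0 and 0 counts, so the fitted difference there depends on a prior count. As a ratio of summed counts, 80 in 3 hip cap libraries against 10 in 4 metatarsal libraries, Itgax was 19.9-fold higher, with a 95% exact (Clopper-Pearson) interval of 10.3 to 43.0 that covers counting error only. Itgb7, a lymphocyte and mast cell subunit, passed at 5 MPa alone (1.61 ± 0.41 (SE), adjusted p = 0.00412, and 1.07 without MC2 and H53), and Itgal, the lymphocyte subunit, was at 0.211 to 4.89 CPM in hip caps and did not pass. Macrophage markers summed to 137 to 345 CPM in hip cap controls and 102 to 144 in metatarsal controls, and 1 of 10 was higher and 2 lower by the test. At 5 MPa, 4 of 10 macrophage markers were higher and 1 lower in hip caps, and 7 of 7 tested neutrophil markers were higher. Leaving out MC2 and H53, 3 macrophage markers were higher and 4 lower, and 6 neutrophil markers were higher. The part of these cells in the leukocyte subunits was not tested.

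**Figure D3:**
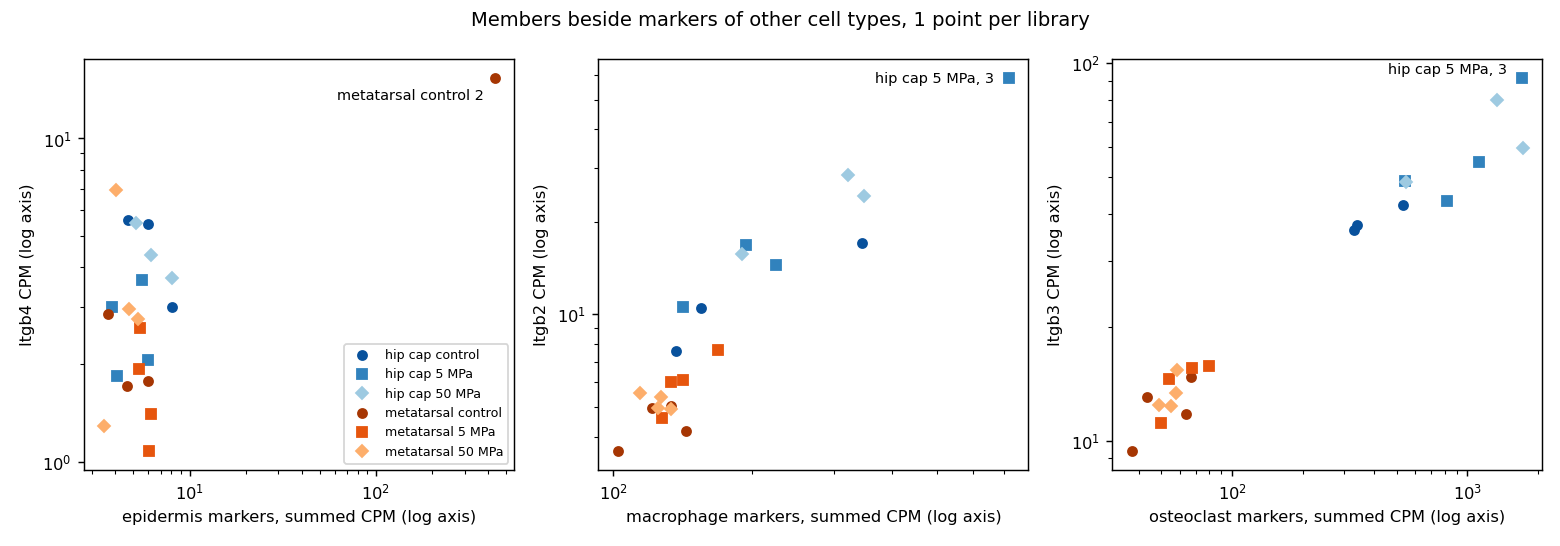
CPM of Itgb4, Itgb2 and Itgb3 (log axes) against the summed CPM of epidermal, macrophage and osteoclast markers in the 22 libraries, coloured by group. MC2 lies apart on the left panel at 435 CPM of epidermal markers, H53 lies apart on the middle panel at 716 CPM of macrophage markers, and hip caps and metatarsals form separate clouds on the right panel.

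Of the laminin alpha chains, the alpha4 chain Lama4, typical of vessel walls and mesenchyme, was at 59.4, 52.3 and 50.2 CPM in hip cap controls and 232, 214, 241 and 232 in metatarsal controls. Its log2 fold change was -2.02 ± 0.21 (SE), adjusted p = 4.51e-07, a 4.07-fold lower level in hip caps. Endothelial markers were at 74.0 to 126 CPM in hip cap controls and 109 to 159 in metatarsal controls, with 1 of 10 lower and none higher by the test. The difference in Lama4 was -1.85 ± 0.16 at 5 MPa, where 0 of 10 endothelial markers passed by edgeR, and -1.53 ± 0.22 at 50 MPa, where 0 of 10 passed. Without MC2 and H53, 3 of 10 endothelial markers were lower at 0 MPa, 4 at 5 MPa and 0 at 50 MPa, and the part of vessels in the Lama4 difference was not tested. Lama2, the laminin chain of muscle and peripheral nerve basement membranes, was lower in hip cap controls at 18.5, 19.5 and 20.0 CPM against 34.0, 34.3, 42.0 and 46.1 (log2 fold change -0.82 ± 0.28 (SE), adjusted p = 0.0326), and the difference was -1.59 ± 0.21 at 5 MPa and -1.89 ± 0.29 at 50 MPa. Skeletal muscle markers moved in the same direction, with 12 of 12 lower in hip cap controls, and Schwann cell markers were at 118 to 202 CPM in hip cap controls and 26.2 to 35.7 in metatarsal controls. The part of muscle in the Lama2 difference was not tested.

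Lama3, an epithelial laminin chain, had 1, 1 and 2 counts in the hip cap controls and 43, 412, 283 and 155 in the metatarsal controls. As a ratio of summed counts, 893 against 4, the metatarsals were 84.0-fold higher, with a 95% exact interval of 32.7 to 309 for counting error. MC2 was the highest metatarsal control. The 8 metatarsals under pressure, with epidermal markers at 3.47 to 6.20 CPM, held 7.22 to 15.2 CPM of Lama3. Without MC2 and H53 the log2 fold change was -5.40. In HC4, the hip cap control that the study removed, Lama3 had 123 counts, or 5.82 CPM of its own total. The removed 50 MPa hip cap H502 had 61 counts, or 6.81 CPM of its own total. The 50 MPa hip caps that were kept held 0 to 1.11 CPM after further scaling of library sizes. With all 24 libraries in the fit the Lama3 call at 50 MPa was lost, as it was without M504. Lama1, a chain of early embryonic basement membranes, was higher in hip caps, at 1.90, 4.45 and 3.52 CPM against 0.765, 2.35, 1.54 and 0.848 in the controls (log2 fold change 1.76 ± 0.63 (SE), adjusted p = 0.0404) and 8.74, 4.43 and 6.18 against 0.924, 1.02, 1.08 and 0.836 at 50 MPa (3.09 ± 0.64). Lama5, the widespread alpha chain of mature basement membranes, was lower in hip cap controls at 11.1, 9.06 and 18.6 CPM against 21.8, 31.1, 24.3 and 32.4 (log2 fold change -0.95 ± 0.33 (SE), adjusted p = 0.0323). Its differences of 0.26 ± 0.23 at 5 MPa and 0.32 ± 0.36 at 50 MPa did not pass.

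The beta1 and gamma1 chains, partners of each other in many laminins, were both lower in hip caps. Lamb1 was at 25.2, 24.9 and 36.0 CPM in hip cap controls and 101, 115, 121 and 122 in metatarsal controls (log2 fold change -2.02 ± 0.35 (SE), adjusted p = 0.000262). Lamc1 was at 61.1, 67.7 and 71.6 against 142, 157, 161 and 177 CPM (-1.27 ± 0.24 (SE), adjusted p = 0.000472). Under 5 MPa the differences were -1.20 ± 0.26 for Lamb1 and -0.64 ± 0.18 for Lamc1, and -1.73 and -0.93 without MC2 and H53. H53 had the highest Lamb1 and Lamc1 of all hip caps, 106 and 154 CPM, and for Lamc1 it alone overlapped with the metatarsals. The beta2 chain Lamb2, known from muscle synapses and kidney glomeruli, was at 219, 134 and 254 CPM in hip cap controls and 124, 139.9, 139 and 148 in metatarsal controls, and did not pass between tissues. Lamb3, a beta chain of epithelia, was at 4.34, 3.34 and 5.42 CPM in hip cap controls and 2.10, 4.70, 1.37 and 1.23 in metatarsal controls, and did not pass either (0.46 ± 0.59 (SE), adjusted p = 0.592). Lamc3, the gamma3 chain, was higher in hip caps at 0 MPa (1.40 ± 0.50 (SE), adjusted p = 0.0381) and 5 MPa (0.93 ± 0.31, and 0.72 with an adjusted p of 0.104 without MC2 and H53), with 2.17, 3.97 and 6.94 CPM against 1.72, 2.40, 2.91 and 2.39 in the controls, ranges that overlapped.

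**Figure D4:**
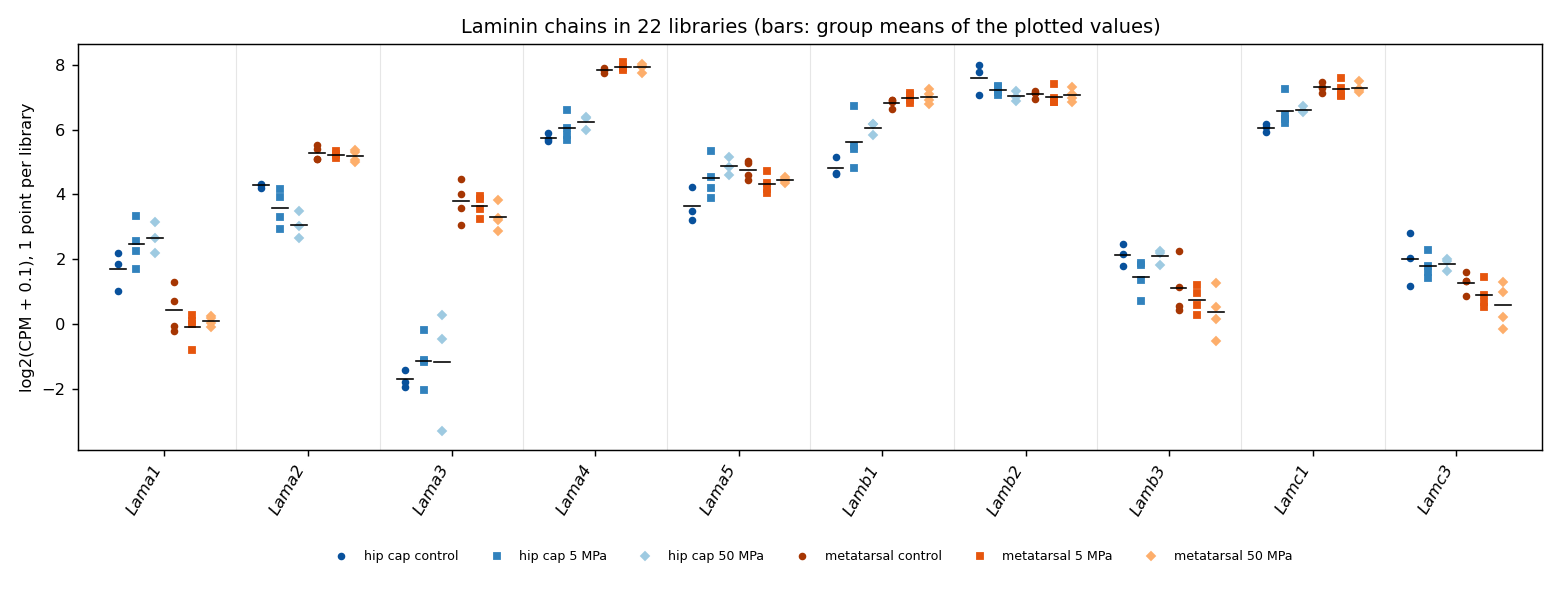
Log2(CPM + 0.1) of 10 laminin chains in each of the 22 libraries, with bars at group means of the plotted values. Lama2, Lama3, Lama4, Lamb1 and Lamc1 are lower in hip caps than in metatarsals, and Lama1 is higher.

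Some of these tissue calls were less stable than others. At 0 MPa the calls of Lamc3, Lama5, Lama1, Lama2 and Itga3 were lost under 10 of 18, 8 of 19, 8 of 18, 7 of 19 and 5 of 19 alternatives, whereas those of Itga10, Itgb5, Lama3, Lama4 and Lamb1 held under all 18 or 19. At 5 MPa the least stable calls were those of Itgam and Itga4, lost under 13 and 12 of 20. At 50 MPa the call of Itgb8 was lost under 10 of 18, among them leaving out any of the 4 metatarsals, H501 or H504.

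The partners of these receptors and ligands were counted in 4 lists. Of 27 integrin adaptor and focal adhesion genes, 6 were higher and 3 lower in hip cap controls, where 14.6% of all genes were higher and 16.4% lower, from Lims2, a PINCH adaptor of integrin-linked kinase (5.60 ± 0.46 (SE), adjusted p = 2.14e-08), to the tensin Tns1 (-1.03 ± 0.15 (SE), adjusted p = 3.84e-05). Talin 1, which activates integrins from inside the cell, was higher, with Tln1 at 422, 249 and 517 CPM against 114, 139, 157 and 146 (1.49 ± 0.27), and Fermt2, a kindlin that works with talin, did not pass (0.20 ± 0.16 (SE), adjusted p = 0.366). Of 16 basement membrane partners of laminins, 9 were higher and 5 lower, from the laminin-binding netrin Ntn4 (5.25 ± 0.31 (SE), adjusted p = 4.62e-10) to Fbln1 (-3.60 ± 0.47 (SE), adjusted p = 1.72e-05). Nid1, which links laminin to collagen IV, was -2.83 ± 0.29, and the main collagen IV chain Col4a1 was -1.50 ± 0.43, both lower in hip caps like Lamb1 and Lamc1. Of 18 other integrin ligands, 15 were tested, with 5 higher and 3 lower, from osteopontin, Spp1 (5.67 ± 0.40 (SE), adjusted p = 2.87e-09), to periostin, Postn (-4.43 ± 0.62 (SE), adjusted p = 4.51e-05). Of 14 genes of the dystrophin complex, the laminin alpha2 receptor, 2 were higher and 5 lower, among the latter the syntrophin Sntb1 (-3.03 ± 0.59 (SE), adjusted p = 0.00047). The median log2 fold changes of the 4 lists were 0.22, 1.25, 0.14 and -0.62, beside -0.08 for all genes. At 5 MPa the numbers higher and lower were 12 and 2, 9 and 5, 6 and 3, and 2 and 7, in the same order, and at 50 MPa 6 and 1, 7 and 4, 6 and 3, and 2 and 4. The shares of all genes were 18.9% higher and 19.2% lower at 5 MPa, and 10.6% and 9.84% at 50 MPa. The numbers at 5 MPa were 9 and 3, 9 and 6, 6 and 5, and 2 and 9 without MC2 and H53.

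The effect of pressure was then examined within hip caps. At 50 MPa, the laminin chains Lama2 and Lamb2 were lower than in controls and the integrin subunit Itgb8 was higher, and no other integrin or laminin gene passed: 3 of 35, or 1 higher and 2 lower, where 5.48% of all genes passed (3.51% higher and 1.97% lower). The study had also picked out Lama2 on these samples, so its call is not independent evidence. It reported Lama2 as significantly lower at both pressures and with larger fold changes than here, where Lama2 did not pass at 5 MPa. Lama2 was at 18.5, 19.5 and 20.0 CPM in the controls, 9.69, 15.0, 7.46 and 17.7 at 5 MPa and 8.11, 11.2 and 6.18 at 50 MPa. All 7 pressed hip caps were below all 3 controls, and the log2 fold change at 50 MPa was -1.19 ± 0.30 (SE), adjusted p = 0.0285, a 2.28-fold lower level. In HC4, the control the study removed, Lama2 had 57 counts, or 2.70 CPM of its own total. In the 50 MPa hip cap H502 it had 93 counts, or 10.4 CPM. Both values lack the further scaling of the kept libraries, whose factors were 0.43 to 1.12 in hip caps. No factor in that range would bring HC4 up to the kept controls at 18.5 to 20.0 CPM. This removed control was thus unlike them, and with all 24 libraries in the fit the Lama2 call was lost. The H502 value cannot be ranked against the CPM above. The summed skeletal muscle markers were at 9.77 to 16.8 CPM in hip cap controls and 34.0 to 52.5 at 50 MPa, with 1 of 12 higher by the test, 9 positive and 3 negative values. The summed Schwann cell markers were at 118 to 202 CPM in controls and 69.7 to 83.7 CPM at 50 MPa, with 1 of 7 lower by the test, 3 positive and 4 negative values.

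Lamb2 was at 219, 134 and 254 CPM in the controls and 146, 118 and 129 at 50 MPa. The lowest control, HC2, lay within the 50 MPa range, and the log2 fold change was -0.96 ± 0.21 (SE), adjusted p = 0.0184. Itgb8 was at 0.814, 2.86 and 1.71 CPM in the controls and 5.48, 6.09 and 1.85 at 50 MPa, where H504 lay among the controls (log2 fold change 1.78 ± 0.47 (SE), adjusted p = 0.034). Itga10 fell short of the threshold, with 281, 187 and 298 CPM in controls and 174, 138 and 163 at 50 MPa, no overlap and a log2 fold change of -0.91 ± 0.28 (SE), adjusted p = 0.0569. Chondrocyte markers were also lower at 50 MPa in sum, 31385 to 35986 against 46132 to 75441 CPM, with 2 of 10 lower by the test (5 of 10 without MC2 and H53). Itgav, at 88.7, 116 and 98.5 CPM in controls and 159.6, 154 and 174 at 50 MPa, did not pass either (0.77 ± 0.25 (SE), adjusted p = 0.0739). Nor did Itga4, with a fitted value of 1.07 ± 0.33 (SE), adjusted p = 0.0602. Its CPM overlapped closely, at 8.14, 14.8 and 5.04 in controls and 9.79, 16.1 and 5.56 at 50 MPa. The fitted value, unlike these CPM, is adjusted for run and library type. Of the 35 genes, 11 were higher and 3 lower in all 50 MPa hip caps than in all controls, against 8.19% and 7.56% of all genes. In the partner lists, the tensin Tns2 (log2 fold change -0.82), the basement membrane proteoglycan perlecan, Hspg2 (-1.08), and Col4a5 (-0.95) were lower at 50 MPa, and no other gene of the 4 lists passed. Leaving out MC2 and H53, 2 adaptors and 4 basement membrane partners were lower and 2 other ligands higher. Without MC2 and H53, 7 integrin and laminin genes passed: Itgav, Itgb8, Lama4 and Lamb1 were higher and Itga10, Lama2 and Lamb2 lower. The share of all genes that passed in this fit was not counted, so the 7 cannot be set against it. Neither MC2 nor H53 belongs to the 2 groups compared here. Leaving them out acts only through what all groups share in the fit.

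These pressure calls rested on few libraries and on how they were modelled. All 50 MPa hip caps are unstranded, with HC3 as the only unstranded control: without HC3 none of the 35 genes passed, and none did with all 24 libraries, within run 1 alone or with the hip cap libraries alone. Leaving out H501 left 1 call, leaving out HC2 gave 6 and leaving out H504 gave 5.

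**Figure D5:**
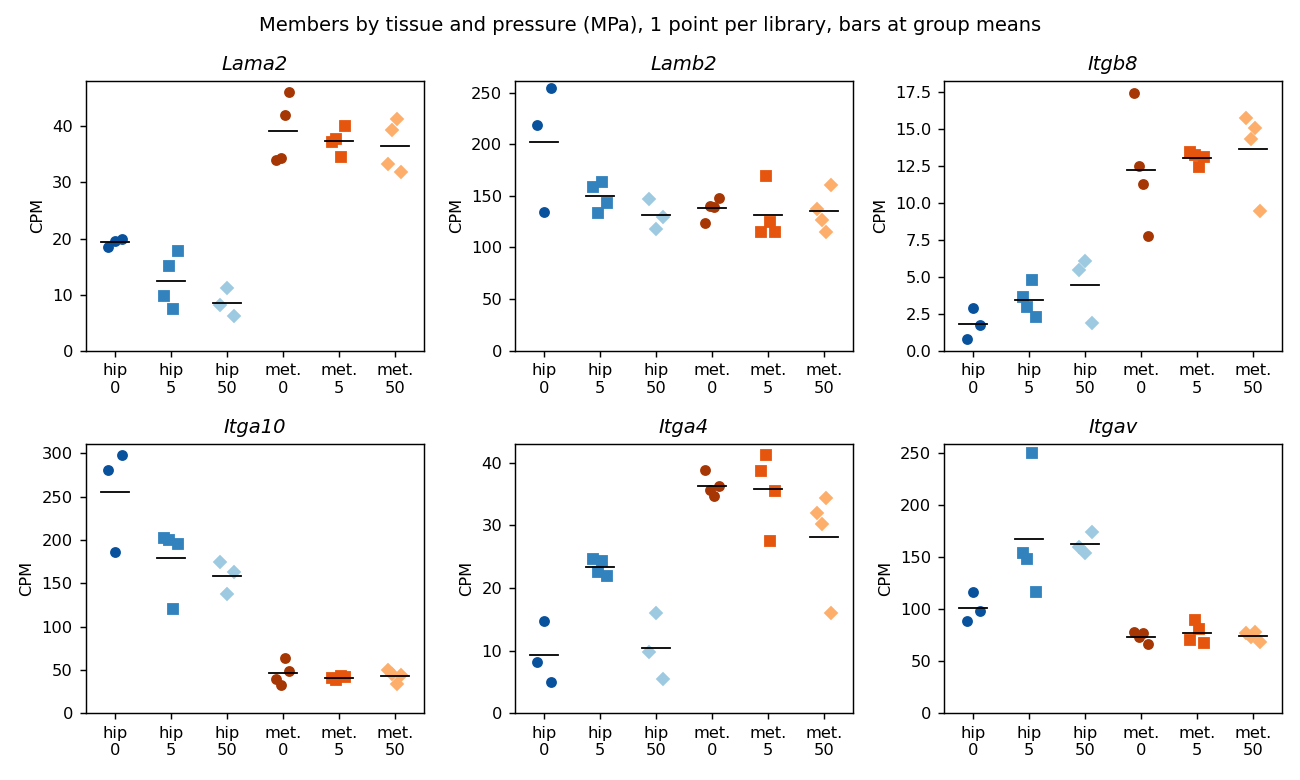
CPM of 6 integrin and laminin genes in hip caps and metatarsals at 0, 5 and 50 MPa, 1 point per library with bars at group means. Lama2 lies between 18.5 and 20.0 CPM in the hip cap controls, between 6.18 and 11.2 CPM at 50 MPa, and between 31.9 and 46.1 CPM in all metatarsals.

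At 5 MPa none of the 35 genes passed in hip caps, where 5 of 21283 genes did by edgeR (0.0235%, with 0.0094% higher and 0.0141% lower). At an unadjusted p under 0.05 there were 7 of the 35, against 15.6% of all genes, and DESeq2 called Itga4 alone. All 5 MPa hip caps lay above all controls for 3 of the 35 and below them for 1, against 8.4% and 7.85% of all genes. All 5 MPa hip caps are of run 2 and all controls used are of run 1, so the run term rests on the metatarsals alone. The lowest adjusted p was for Itga4, at 8.14, 14.8 and 5.04 CPM in controls and 24.6, 22.6, 24.4 and 21.9 at 5 MPa (1.17 ± 0.34 (SE), adjusted p = 0.141). HC4, the removed hip cap control, was of run 2 like the 5 MPa hip caps. It had 606 counts of Itga4, or 28.7 CPM of its own total, without further scaling. Lama2 at 5 MPa had a log2 fold change of -0.90 ± 0.33 (SE), adjusted p = 0.211. Lamb1 and Lamc1 had values of 0.91 ± 0.41 and 0.56 ± 0.28, with the highest hip cap value of both in H53.

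In metatarsals none of the 35 genes passed at 5 MPa or at 50 MPa by edgeR or by DESeq2, and 0% of all genes did by edgeR, with 4 and 3 of the 35 at an unadjusted p under 0.05, against 3.44% and 4.1% of all genes. At 5 MPa no gene of the 35 lay wholly above or below the controls, against 1.65% and 1.24% of all genes, and at 50 MPa none lay above and 1 below, against 2.38% and 2.11%. Lama4 was at 232, 214, 241 and 232 CPM in controls, 243, 271, 240.1 and 228 at 5 MPa and 244, 249, 263 and 217 at 50 MPa. Itgb1 was at 245, 292, 264 and 239 CPM at 5 MPa and 237, 232, 272 and 229 at 50 MPa. Their log2 fold changes at 50 MPa were 0.13 ± 0.16 and 0.04 ± 0.16. For Itgb4 the fitted log2 difference under 5 MPa was -1.72 ± 0.59, and 0.05 without MC2 and H53, so the value turned sign when the library with epidermal RNA was left out.

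Whether pressure acted differently in the 2 tissues was tested as an interaction. None of the 35 genes passed at 5 MPa or 50 MPa by edgeR, where 0.0188% (0.0094% in each direction) and 0.442% of all genes did (0.263% higher and 0.179% lower). At an unadjusted p under 0.05 there were 5 and 12 of the 35, against 11.9% and 19% of all genes. DESeq2 called none at 5 MPa, and at 50 MPa it called Itga4, Itgb8, Lama5 and Lamb2. For Lama2 the response to 50 MPa in hip caps minus that in metatarsals was -1.08 ± 0.34 (SE), adjusted p = 0.1, for Lamb2 -0.79 ± 0.24 (SE), adjusted p = 0.0923, and for Itgb8 1.43 ± 0.50 (SE), adjusted p = 0.131. By edgeR, the changes in hip caps at 50 MPa were thus not shown to differ from those in metatarsals, while for Lamb2 and Itgb8 the call depended on the tool.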

How the data were processed

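RNA from 24 libraries was sequenced, and the study trimmed reads with Trim Galore 0.6.5, quantified transcripts with kallisto and collapsed these to genes with tximport. The authors deposited these values as unscaled estimated counts per gene (processing notes name GRCm39; the annotation release is not given in the sources used here), and they were rounded to whole numbers here. Pressures are given in MPa, as in the methods; the sample labels write mPa. All 6 groups were fitted together with edgeR 4.0.16 in R 4.3.3 (TMM factors, filterByExpr over the 6 groups, glmQLFit with robust estimation and legacy set off, glmQLFTest), with sequencing run and library type as terms, the terms the study used in DESeq2. Runs are not in the labels and were taken by eye from the coloured bar above the study's heat map of samples; their split differs from that of the library kits in the methods, so the run of some libraries may be wrong. P-values are two-sided and Benjamini-Hochberg adjusted over the 21283 genes tested, with a threshold of 0.05. CPM are on TMM-scaled library sizes, with TMM factors of 0.43 to 1.12 in hip caps and 1.08 to 1.55 in metatarsals. Transcript lengths came from GENCODE M21 (GRCm38).

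Every gene of the rule could be named, with values by library for those past the threshold within a tissue, the collagen- and laminin-binding and leukocyte subunits and the laminin chains, and from each partner list the extremes past the threshold between controls. Counts cover all genes of the rule and the lists; 1 laminin chain and 1 partner are not reported singly here. The genes and lists were chosen with earlier results of these data known. Correlations of same-numbered libraries' deviations from their group means ran from -0.0988 to 0.165, so replicate numbers were not taken as pairs. The steps were tested on simulated data. Alternatives were RLE and no scaling, DESeq2 1.42.0, other filters, batch terms and sets of libraries, a replicate block and leaving out each library; leaving out MC2 and H53 together was chosen after seeing the data. Metatarsal libraries are pools of embryos' bones that the labels do not tie to litters, so their p-values measure the spread between these pools.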

Additional observations from a re-analysis of the deposited data

Results flagged for a closer look

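In groups of 4 libraries, a gene was listed where the highest or lowest library lay far from the other 3 by Dixon's test at the 95% level, which chance gives for about 1 in 20 groups. Of 136 gene and group pairs, 12 were listed, and 7 of these were H53. In H53, 6 genes were listed as far above the other 5 MPa hip caps: Itga1 at 86.6 CPM, Itga11 at 109 CPM, Itgam at 31.6 CPM, Itgb1 at 435 CPM, Itgb2 at 58.8 CPM and Itgb5 at 212 CPM. H53 was also the highest of these hip caps for genes that were not listed, such as Itgav at 249 CPM and Lamb1 at 106 CPM. Itga10, the subunit typical of chondrocytes, was the lowest there at 120.1 CPM, beside chondrocyte markers of 21094 CPM in this library and 34735 to 50813 CPM in the other 3. The part of leukocytes, vessels or bone in these values was not tested.

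In the metatarsal control MC2, Itgb4 at 15.4 CPM was far above the other 3 controls, beside the epidermal markers of that library. The other 4 were single metatarsal values: Itga9 at 33.1 CPM in M52, Itgal at 1.66 CPM in M51, Itgb5 at 66.1 CPM in M53 and Itgb7 at 2.89 CPM in M504. None of the 35 genes passed edgeR's test of the interaction of tissue and pressure, while DESeq2 called 4 at 50 MPa.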

How the results depend on the processing

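Of 57 calls of single genes, recomputed in 1086 alternatives, 930 kept their direction and their side of the threshold, 156 kept the direction only and 0 reversed. The counts of genes past the threshold changed as follows. Between tissues, run 1 alone gave 8 at 0 MPa and 7 at 50 MPa, all 24 libraries gave 11 at 50 MPa, and at least 10 counts in every library gave 13 at 5 MPa, with fewer genes tested. In hip caps at 50 MPa, 0 passed with library sizes alone, all 24 libraries, run 1 alone or the hip cap libraries alone, 5 with sequencing run as the only term, 6 with at least 10 counts in every library, and 7 with DESeq2 or without MC2 and H53. In hip caps at 5 MPa, DESeq2 gave 1, and library type as the only term or no batch terms gave 4. For the interaction at 50 MPa, DESeq2 gave 4 and at least 10 counts in every library gave 1. Leaving out 1 library gave 8 to 16 (0 MPa), 18 to 22 (5 MPa) and 5 to 18 (50 MPa) between tissues, 0 to 1 and 0 to 6 in hip caps at 5 and 50 MPa, 0 in metatarsals, and 0 to 1 and 0 to 2 for the interactions. A replicate block gave 15, 21 and 18 between tissues and 5 in hip caps at 50 MPa, among them the 3 of the fit without it; the other counts remained 0. The labels tie no replicate numbers across groups, and same-numbered libraries did not all vary together. The causes were not tested. Libraries of as few as 4185557 counts and groups of 3 limit what can be seen for genes near 1 CPM, such as Itgax, Itgal and Lama3 in hip caps.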
